A study of Mus musculus with 6 samples.

Results

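The PARP family and its partner gene Dtx3l were followed in CT26 cells exposed to irinotecan. The genes were chosen by symbol: Parp1, Parp2, Parp3, Parp4, Parp6, Parp9, Parp10, Parp12, Parp14 and Dtx3l. All 10 had a row among the 11604 genes of the deposited table, and all 10 passed the filter on low counts, which kept 11599 genes. CT26 is a colon carcinoma line from the BALB/c mouse, labelled wild type. Irinotecan (CPT-11) is a prodrug whose active form traps DNA topoisomerase I on DNA. The groups were 3 libraries of CT26 cells given 10 µM irinotecan for 24 h and 3 libraries of CT26 cells given DMSO. The labels list 3 libraries in each group, although the design text calls the profiling duplicate; all 6 were used, and which count of independent replicates holds is not known. The labels do not say whether the libraries of a group came from separate cultures, so the p-values speak only for the variation among these 6 libraries, and that variation may be technical. The libraries held 17049072 to 17294496 counts with irinotecan and 16052326 to 16649571 counts in DMSO.

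Enzymes of the PARP family use NAD+ to attach ADP-ribose to proteins and nucleic acids, some as long chains and most as single units. Parp1, Parp2 and Parp3 are switched on by DNA breaks and help to recruit repair proteins, and drugs that inhibit them are used against tumours with repair defects. Parp9, Parp10, Parp12 and Parp14 are known as interferon-stimulated genes with roles in antiviral defence and signalling. Dtx3l is a ubiquitin ligase that forms a complex with the Parp9 protein, and the genes of the pair lie head to head in the genome.

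With irinotecan, 6 of the 10 genes rose, none fell and 4 did not pass the threshold of 0.05 on the adjusted p (edgeR quasi-likelihood test, Benjamini-Hochberg adjustment over all genes). Over all genes tested, 11.8% passed as higher and 10.3% as lower. All 5 interferon-linked genes rose, with log2 fold changes from 0.69 to 1.26 and a median of 0.95. Of the 3 DNA-damage genes, Parp3 rose by 0.46 while Parp1 and Parp2 did not pass. Parp4 and Parp6, which belong to neither class, did not pass either. The median log2 fold change over all genes tested was 0.00, with a 5th percentile of -0.31 and a 95th percentile of 0.53. At an unadjusted p under 0.05, 7 members were higher and 0 were lower. DESeq2 and limma-voom each called 6 higher and 0 lower. Of all calls, 53.5% were higher, or 66.1% where libraries were scaled by their totals alone, and 6 members rose under that scaling too.

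**Figure D1:**
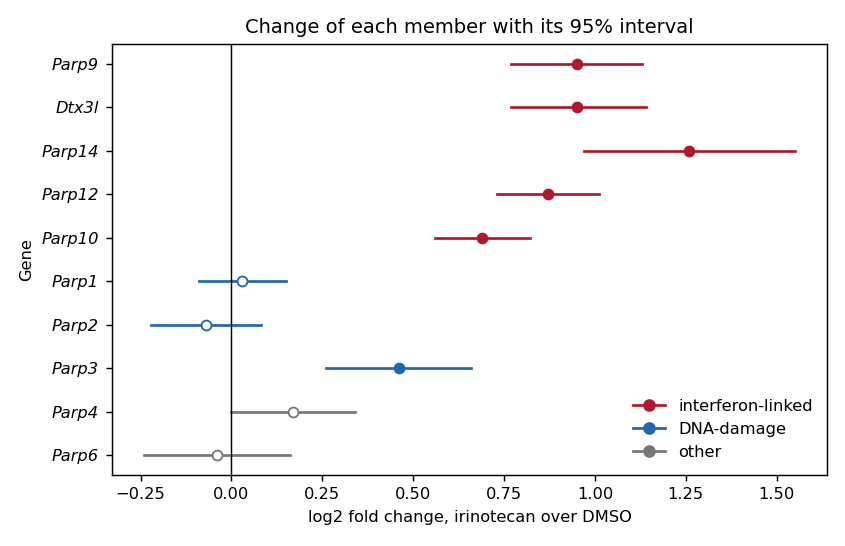
Log2 fold change of irinotecan over DMSO for each member (points) with its 95% interval from the edgeR fit (bars), coloured by class. Filled points passed the threshold of 0.05 on the adjusted p and open points did not. The 5 interferon-linked genes lie between 0.69 and 1.26, and Parp3 at 0.46 is the one DNA-damage gene whose interval lies above 0.

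Markers of cell types were read for the label. All 4 mesenchymal markers sought were listed, Vim at 2804.8 ± 246 CPM with irinotecan and 2266.5 ± 117 CPM in DMSO (SD, n = 3 each), and 2 of them rose. Of 8 epithelial markers 2 were listed, and they were called in opposite directions. Cdh17, at a low level, rose to 2.4 ± 0.443 CPM with irinotecan, against 0.9 ± 0.41 CPM in DMSO (log2 fold change 1.40, adjusted p = 0.0047 by edgeR, passing in 12 of 12 alternatives). Krt18 fell to 45.3 ± 2.62 CPM with irinotecan, against 53.1 ± 3.9 CPM in DMSO (-0.23, adjusted p = 0.025), and was lost without irinotecan replicate 1, irinotecan replicate 3 or DMSO replicate 2, at adjusted p up to 0.14. Epcam, Krt8, Krt19, Cdh1, Cdx2 and Vil1 had no row in the analysed table. Of 8 haematopoietic markers 2 were listed and both rose with the interferon-linked genes, Cd14 to 28.9 CPM with irinotecan against 24.5 CPM in DMSO and Cd68 to 4.01 CPM with irinotecan against 2.36 CPM in DMSO. Their sum was 31.1 to 34.3 CPM with irinotecan and 24.9 to 28.4 CPM in DMSO. Ptprc, Cd3e, Itgam, Adgre1 and Lyz2, and the 3 endothelial markers, had no row, and the part of other cells in the result was not tested. Cd14 passed in 5 of 12 alternatives and Cd68 in 8. Cd14 was lost without any 1 library except DMSO replicate 1, and Cd68 without irinotecan replicate 1, irinotecan replicate 3, DMSO replicate 1 or DMSO replicate 3. Cd14 was also lost with DESeq2 (adjusted p = 0.082) and with DESeq2 size factors in edgeR (0.0504). In bulk RNA a change in the mix of cells and a change per cell cannot be told apart.

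Parp14 (ENSMUSG00000034422, chromosome 16, 35653244 to 35691914, minus strand, GRCm39) encodes a transferase with macrodomains that acts with the transcription factor STAT6. It stood at 42.1, 28.5 and 33.7 CPM (read counts brought to a common library size with TMM, the trimmed mean of M-values) in irinotecan replicates 1 to 3, against 12.7, 14.2 and 16.6 CPM in DMSO replicates 1 to 3. Every irinotecan library lay above every DMSO library, and irinotecan replicate 1 was the highest. The log2 fold change was 1.26 ± 0.14 (SE, adjusted p = 2.2e-05 by edgeR), a 2.4-fold rise with a 95% interval of 1.96 to 2.94. It ranked 57 among 11599 genes by size of rise. It also had the widest log2 interval of the 6 genes that rose, 0.97 to 1.55. Its reads in DMSO numbered 202 to 273 per library. Parp3, with a narrower interval of 0.26 to 0.66, had 224 to 254 reads per library in DMSO. What set the width was not tested.

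Parp9 (ENSMUSG00000022906, chromosome 16, 35758840 to 35792975, plus strand) encodes a macrodomain protein that binds ADP-ribose. It stood at 42.1, 35.2 and 39.6 CPM with irinotecan, against 21.7, 19.7 and 19.2 CPM in DMSO. Dtx3l (ENSMUSG00000049502, chromosome 16, 35746881 to 35759521, minus strand), its ubiquitin ligase partner, stood at 45.3, 36.2 and 42.5 CPM with irinotecan, against 21.2, 22.3 and 20.7 CPM in DMSO. In both genes the groups were well apart, and irinotecan replicate 2 was the lowest of its group. The log2 fold changes were 0.95 ± 0.087 for Parp9 (SE, adjusted p = 8.4e-08) and 0.95 ± 0.089 for Dtx3l (adjusted p = 9.5e-08), each a 1.93-fold rise by edgeR. The balance of the pair overlapped between the groups. The log2 ratio of Dtx3l to Parp9 counts was 0.11, 0.04 and 0.10 with irinotecan and -0.04, 0.18 and 0.11 in DMSO. Its mean was 0.08 ± 0.04 with irinotecan and 0.08 ± 0.11 in DMSO (SD, n = 3 each; two-sided exact permutation p = 1, where the smallest p that 3 against 3 allows is 0.1). The gene spans overlap by 682 bases at their 5′ ends. Strandedness is not given in the sources used here, and without it reads of the pair from that stretch cannot be told apart.

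Parp12 (ENSMUSG00000038507, chromosome 6, 39063344 to 39095283) encodes a zinc finger transferase with antiviral activity. It stood at 93.9, 79.1 and 87.8 CPM with irinotecan, against 47.5, 47.1 and 47.9 CPM in DMSO. The DMSO libraries were nearly equal, and each irinotecan library stood far above them. Its log2 fold change of 0.87 ± 0.067 (SE) had the smallest p of the 10 genes (adjusted p = 6.9e-09 by edgeR) and ranked 16 by p among all genes tested. Parp10 (ENSMUSG00000063268, chromosome 15, 76115374 to 76127641), a mono-ADP-ribosyltransferase first described as a partner of the MYC protein, stood at 72.1, 70.4 and 74.1 CPM with irinotecan, against 43.5, 44.7 and 45.8 CPM in DMSO. Its rise was the smallest of the interferon-linked genes, 0.69 ± 0.062 on the log2 scale (adjusted p = 5.3e-08), and its irinotecan libraries lay closest together of that class. Parp10 shares 1401 bases with Plec, the plectin gene, on the same strand, so strand alone cannot tell apart reads from that stretch. Plec stood at 632 ± 27.9 CPM with irinotecan and 577 ± 19.6 CPM in DMSO (SD, n = 3 each), a log2 fold change of 0.13 with an adjusted p of 0.0504 by edgeR. Plec passed with scaling by totals alone (0.015), limma-voom (0.048), the replicate block (0.0041) and without DMSO replicate 3 (0.039).

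**Figure D2:**
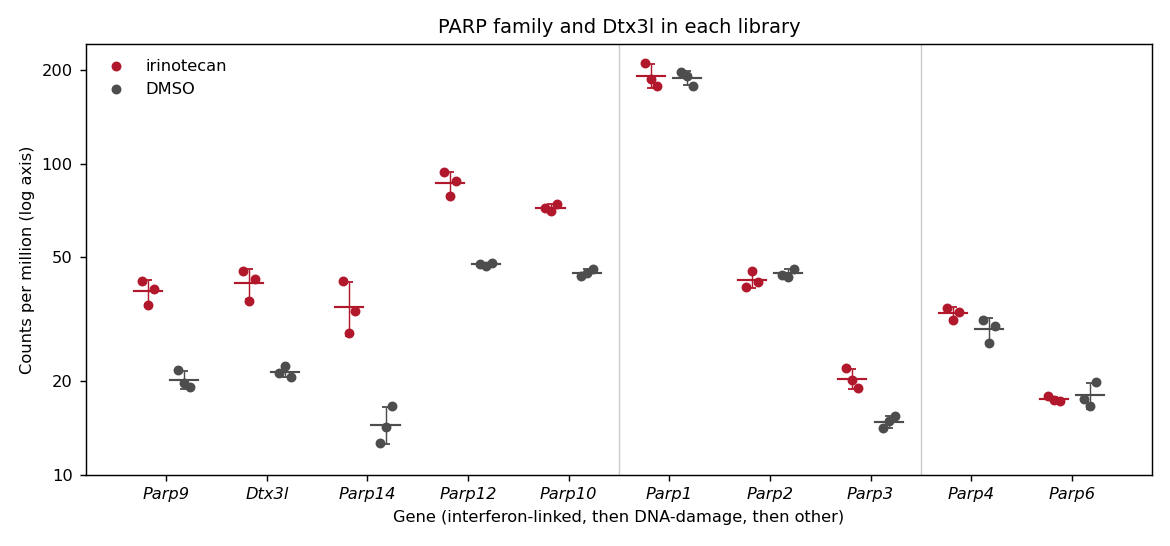
TMM-scaled CPM of each gene on a log axis, with 1 point per library, irinotecan left of DMSO, horizontal lines at the group means and error bars of 1 SD (n = 3). Each interferon-linked gene and Parp3 has its irinotecan libraries above its DMSO libraries, while the groups overlap in Parp1, Parp2 and Parp6.

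Parp1 (ENSMUSG00000026496, chromosome 1, 180396489 to 180428819), the main poly(ADP-ribose) polymerase of the break response, stood at 211, 188 and 178 CPM with irinotecan, against 197, 191 and 178 CPM in DMSO. The groups overlapped. The log2 fold change was 0.03 with a 95% interval of -0.09 to 0.15 (adjusted p = 0.75 by edgeR), and its sign turned without irinotecan replicate 1 (-0.04) or DMSO replicate 3 (-0.01). Parp2 (ENSMUSG00000036023, chromosome 14, 51045298 to 51058758), the second break-activated polymerase, stood at 40.3, 45.1 and 41.7 CPM with irinotecan, against 44, 43.3 and 46 CPM in DMSO. Its groups overlapped as well, at a log2 fold change of -0.07 with an interval of -0.22 to 0.08 (adjusted p = 0.53). These intervals leave room for changes of up to 1.11-fold higher in Parp1 and 0.861 times the DMSO level in Parp2.

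Parp3 (ENSMUSG00000023249, chromosome 9, 106347521 to 106354148, minus strand), which acts at double-strand breaks and in end joining, went with the genes that rose. It stood at 22, 20.2 and 19 CPM with irinotecan, against 14.1, 14.9 and 15.4 CPM in DMSO. The groups did not overlap, and the log2 fold change was 0.46 ± 0.096 (SE, adjusted p = 0.0016 by edgeR), a 1.38-fold rise with an interval of 1.2 to 1.58. The order of its irinotecan libraries, with replicate 3 the lowest, was not that of Parp9, Dtx3l, Parp12 and Parp14, which Parp4 also had. Parp3 overlaps 987 bases of Rrp9, a gene of ribosomal RNA processing on the opposite strand. Without known strandedness, reads of the 2 genes from that stretch cannot be told apart. Rrp9 fell, to 89.2 ± 5.9 CPM with irinotecan against 110 ± 9.95 CPM in DMSO (SD, n = 3 each; log2 fold change -0.30, adjusted p = 0.0024).

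Parp4 (ENSMUSG00000054509, chromosome 14, 56813076 to 56897251), a component of vault particles, stood at 34.5, 31.5 and 33.3 CPM with irinotecan, against 31.5, 26.5 and 30.2 CPM in DMSO. The lowest irinotecan library and the highest DMSO library met at 31.5 CPM. The log2 fold change was 0.17 with an interval of 0.00 to 0.34 and missed the threshold (adjusted p = 0.15 by edgeR). Parp6 (ENSMUSG00000025237, chromosome 9, 59524567 to 59557568), known from dendrite growth in rat neurons, stood at 17.9, 17.4 and 17.3 CPM with irinotecan, against 17.5, 16.6 and 19.9 CPM in DMSO. Its groups overlapped, at -0.04 with an interval of -0.24 to 0.16 (adjusted p = 0.81), and its sign turned without DMSO replicate 3 (0.04). Counting Parp4, whose groups were apart by less than the rounding, 7 of 10 members had all irinotecan libraries above all DMSO libraries, against 19.3% of all genes tested. None had all irinotecan libraries below, so 7 of 10 did not overlap in either direction, against 37.1% of all genes tested.

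The classes were also set side by side in each library, as a description without a test, since the genes were chosen with earlier results known. The mean log2 CPM of the 5 interferon-linked genes lay 1.07, 0.78 and 0.96 above their DMSO mean in irinotecan replicates 1 to 3, and between -0.02 and 0.03 from it in the DMSO libraries. The same mean of Parp1, Parp2 and Parp3 lay 0.20, 0.16 and 0.06 above in the irinotecan libraries, and between -0.01 and 0.01 in DMSO. The mean log2 fold change was 0.95 in the interferon-linked class and 0.14 in the DNA-damage class, a difference of 0.80. Irinotecan replicate 1 was the highest and irinotecan replicate 2 the lowest of the irinotecan libraries in Parp9, Dtx3l, Parp12 and Parp14. Parp4, which is of neither class and did not pass, had the same order. In Parp10 replicate 3 was the highest and replicate 2 the lowest. The total counts of these libraries were 17223297, 17049072 and 17294496.

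**Figure D3:**
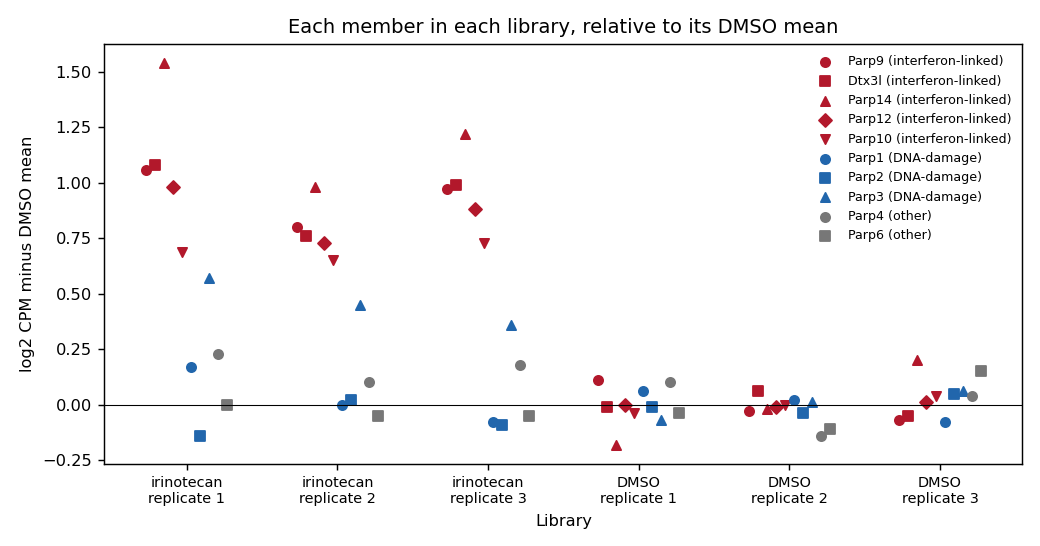
Log2 CPM of each gene minus its own DMSO mean (vertical axis) in each of the 6 libraries (horizontal axis), coloured by class, with 1 marker shape per gene within a class. Parp14 ranges from 0.98 to 1.54 across the irinotecan libraries and Parp10 from 0.65 to 0.73, and Parp1 and Parp2 stay between -0.14 and 0.17.

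Levels between genes were compared on the deposited FPKM scale, which divides by gene length. With irinotecan, Parp1 came first at 36.7 ± 3.23 FPKM, then Parp12 at 22 ± 1.88, Parp10 at 17 ± 0.449 and Parp2 at 11.8 ± 0.68 FPKM (SD, n = 3), with no overlap between neighbours. Parp9 at 8.07 and Dtx3l at 7.29 FPKM overlapped, as did Parp3 at 5.57 and Parp4 at 5.11 FPKM, and Parp14 at 3.77 and Parp6 at 2.27 FPKM closed the order. In DMSO, Parp1 was again first at 35.2 ± 1.68 FPKM, and Parp2 at 12.1 and Parp12 at 11.8 FPKM overlapped. Parp4, Parp9, Parp3 and Dtx3l followed Parp10, between 4.45 and 3.69 FPKM, each overlapping the next, and Parp14 was the last at 1.54 ± 0.218 FPKM. Parp12 and Parp10 stood above Parp2 with irinotecan, and Parp14 above Parp6, where in DMSO Parp14 stood below Parp6. The 5 interferon-linked genes held 48.8%, 46.6% and 50.4% of the summed FPKM of the 10 genes in the irinotecan libraries, against 34.4%, 35.3% and 35.7% in DMSO. Parp1 held 30.9% to 33.8% of the summed FPKM of the 9 PARP genes with irinotecan and 39% to 42.2% in DMSO.

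Parp14, Dtx3l and Parp9 lie within 139.7 kb of chromosome 16, and the listed genes around them were read for comparison. On the side of Parp14, Hspbap1 lies at a gap of 4.4 kb and had a log2 fold change of 0.12 (interval -0.12 to 0.35, adjusted p = 0.52 by edgeR). Beyond it, Slc49a4 rose by 0.34 ± 0.11 (SE, adjusted p = 0.029), and Pdia5, a disulfide isomerase, stood at -0.02 (adjusted p = 0.94). On the side of Parp9, Kpna1, an importin for nuclear transport, lies 6.1 kb away. It stood at 74.2 ± 1.61 CPM with irinotecan and 77.8 ± 0.81 CPM in DMSO (SD, n = 3 each; log2 fold change -0.07, adjusted p = 0.44). Wdr5b stood at -0.14 (interval -0.62 to 0.35) and Fam162a, a mitochondrial protein gene, rose by 0.23 ± 0.065 (adjusted p = 0.014). The 3 members had log2 fold changes of 0.95 to 1.26 beside neighbours at -0.14 to 0.34. The call of Slc49a4 was lost with DESeq2 and without irinotecan replicate 1, irinotecan replicate 2, DMSO replicate 1 or DMSO replicate 2, at adjusted p up to 0.13. That of Fam162a was lost without irinotecan replicate 1 (0.12) or DMSO replicate 2 (0.06).

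**Figure D4:**
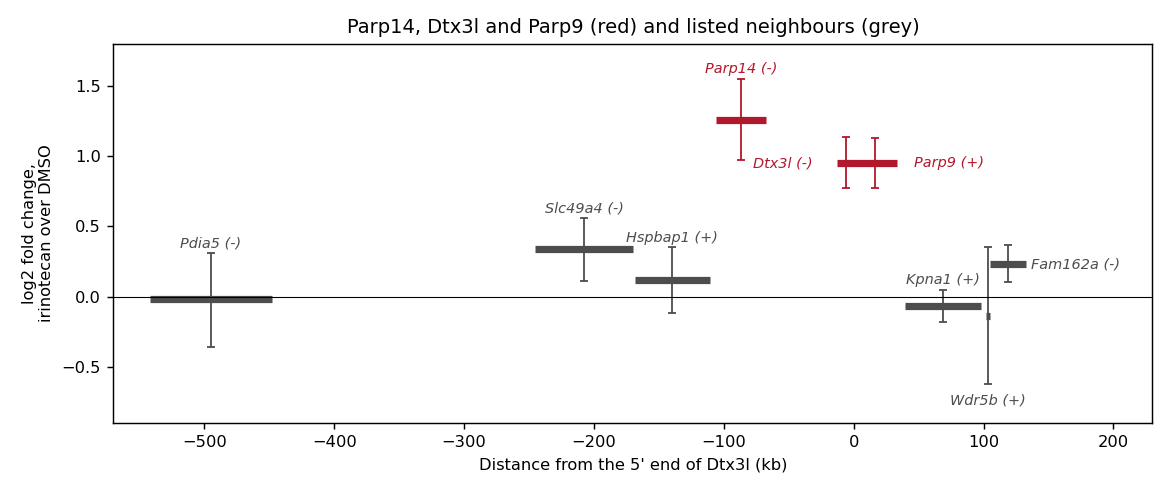
Log2 fold change of irinotecan over DMSO (vertical axis) for Parp14, Dtx3l and Parp9 (red) and the 3 nearest listed genes on either side (grey), placed by their distance in kb from the 5′ end of Dtx3l. Horizontal bars span each gene, vertical bars are 95% intervals, and signs in brackets give the strand. The 3 red genes lie at 0.95 to 1.26, and the grey ones between -0.14 and 0.34.

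Promoter sequences were read from RefSeq (GRCm38.p6), which held a window from 250 bases before to 50 after the start for 7 of the 10 members; Parp9, Parp10 and Parp14 had none. Windows were searched on both strands for the core of the interferon-stimulated response element, which is GAAA, any 2 bases and GAAA again, and for the interferon element known as GAS, TTCNNNGAA. Of the 7 windows, that of Parp4 held the interferon core, as a pair of matches on the gene strand from -150 to -141 and from -144 to -135 that overlap. No window of the 7 held GAS. Over all 32851 promoter windows in the table, 3.44% held the interferon core and 8.3% held GAS. The 250 upstream bases are shown 5′ to 3′ on the gene strand for Parp4, where capitals mark the matches. They are shown as well for Dtx3l, Parp12 and Parp3, the genes with a window whose RNA rose. The positions are chr14:56575369-56575618 (plus) for Parp4, chr16:35939028-35939277 (minus) for Dtx3l, chr6:39118350-39118599 (minus) for Parp12 and chr9:106476950-106477199 (minus) for Parp3, all on GRCm38.p6.
Parp4: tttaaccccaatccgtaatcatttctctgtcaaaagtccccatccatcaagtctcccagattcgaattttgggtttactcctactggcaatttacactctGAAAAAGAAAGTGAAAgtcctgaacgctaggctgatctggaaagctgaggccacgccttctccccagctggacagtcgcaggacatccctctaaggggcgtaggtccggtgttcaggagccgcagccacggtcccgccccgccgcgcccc
Dtx3l: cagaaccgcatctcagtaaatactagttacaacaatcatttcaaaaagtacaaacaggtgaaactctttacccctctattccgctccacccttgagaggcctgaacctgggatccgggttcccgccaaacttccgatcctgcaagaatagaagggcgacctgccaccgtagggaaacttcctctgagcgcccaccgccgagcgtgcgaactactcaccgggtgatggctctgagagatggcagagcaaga
Parp12: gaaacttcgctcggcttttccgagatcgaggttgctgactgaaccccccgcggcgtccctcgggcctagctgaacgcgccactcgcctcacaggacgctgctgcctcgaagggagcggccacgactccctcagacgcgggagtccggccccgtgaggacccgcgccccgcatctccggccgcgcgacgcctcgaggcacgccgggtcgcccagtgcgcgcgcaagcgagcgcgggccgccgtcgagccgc
Parp3: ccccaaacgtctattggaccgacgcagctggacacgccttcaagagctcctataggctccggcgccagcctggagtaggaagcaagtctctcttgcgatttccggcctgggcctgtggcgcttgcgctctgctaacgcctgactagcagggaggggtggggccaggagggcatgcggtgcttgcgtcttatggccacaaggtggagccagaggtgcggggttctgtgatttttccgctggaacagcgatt
A match is a description of the letters, and no match says only that these letters are not in this window. Upstream of Dtx3l the GC content was 52.8%, of Parp4 54.4%, of Parp3 61.2% and of Parp12 73.6%.

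Genes of the same pathways outside the 10 were read from lists. The count of each list is to be read beside the shares over all genes tested, 11.8% higher and 10.3% lower. Of 13 other ADP-ribosyltransferases sought, 9 were measured, of which Parp11 rose and 8 did not pass (1 lower at an unadjusted p under 0.05, and 0 lower by DESeq2 or limma-voom), at a median log2 fold change of 0.03. Parp11, a mono-ADP-ribosyltransferase, stood at 29.6, 30.4 and 30.9 CPM with irinotecan, against 19.2, 22.8 and 22 CPM in DMSO, with no overlap. Its log2 fold change was 0.50 ± 0.086 (SE, adjusted p = 2.5e-04 by edgeR). Zc3hav1, the antiviral zinc finger protein also called PARP13, stood at 255 ± 25.2 CPM with irinotecan and 266 ± 15.9 CPM in DMSO (SD, n = 3 each; adjusted p = 0.52), and was named after its values were seen. Without DMSO replicate 3 the number of these transferases that rose was 2. With the replicate block, and without irinotecan replicate 3 or DMSO replicate 1, 1 of them fell.

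Of 8 genes of ADP-ribose removal measured, 1 fell and 7 did not pass (median -0.06). Adprh, which frees arginines of ADP-ribose, fell to 43.9 ± 1.01 CPM with irinotecan, against 56.1 ± 4.21 CPM in DMSO (SD, n = 3 each; log2 fold change -0.35 ± 0.069 SE, adjusted p = 9.3e-04 by edgeR). Of 8 readers and cofactors of PARP1, 1 rose and 2 fell (median 0.01). Aplf, a histone chaperone of end joining that binds poly(ADP-ribose), rose by 0.30 (adjusted p = 0.028). Macroh2a1, a histone variant with a macrodomain, fell by 0.17 (adjusted p = 0.015), and Hpf1, the cofactor that directs PARP1 and PARP2 to serine, fell by 0.17 (adjusted p = 0.047). These calls were small and did not hold everywhere: of 12 alternatives, Aplf passed in 7, Macroh2a1 in 8 and Hpf1 in 5, with adjusted p up to 0.16, 0.065 and 0.16. All 3 were lost without irinotecan replicate 1, irinotecan replicate 2, DMSO replicate 1 or DMSO replicate 2, and Hpf1 also without DMSO replicate 3. With DESeq2, Aplf (adjusted p = 0.0521) and Hpf1 (0.061) were lost too, and Hpf1 with scaling by totals alone (0.11).

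Of 13 strand-break repair partners, 2 fell and 11 did not pass (median -0.03), against 10.3% lower over all genes tested. Tdp1, the phosphodiesterase that removes topoisomerase I from DNA ends, fell to 49.3 ± 2.82 CPM with irinotecan, against 56.4 ± 2.78 CPM in DMSO (SD, n = 3 each; log2 fold change -0.19, adjusted p = 0.0453 by edgeR). Tdp1 passed in 6 of 12 alternatives. It was lost without irinotecan replicate 1, irinotecan replicate 2, DMSO replicate 1 or DMSO replicate 2, at adjusted p up to 0.19. It was also lost with DESeq2 (adjusted p = 0.06) and with scaling by totals alone (0.095). Xrcc1, the scaffold that binds poly(ADP-ribose) at breaks, stood at 63.5 ± 0.417 CPM with irinotecan and 64.6 ± 5.83 CPM in DMSO. It was named after its values were seen, and is counted both here and among the readers and cofactors of PARP1.

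Of 8 genes of NAD synthesis and use, 0 were called by edgeR, by DESeq2 or by limma-voom, and an unadjusted p under 0.05 was reached by 1 that was higher and 0 that were lower (median -0.02). Nampt, the enzyme that salvages nicotinamide for NAD, stood at 129 ± 6.39 CPM with irinotecan and 125 ± 9.03 CPM in DMSO (SD, n = 3 each). Nadk, the NAD kinase, stood at 259 ± 5.16 CPM with irinotecan and 276 ± 2.44 CPM in DMSO. The replicate block, and leaving out DMSO replicate 1, gave 1 gene higher. Of the Deltex family, 2 of 4 genes were measured beside Dtx3l, and 0 passed by any of the 3 tools or reached an unadjusted p under 0.05. Dtx2 had a log2 fold change of 0.17 (interval -0.02 to 0.36) and Dtx3 of 0.02 (interval -0.13 to 0.17).

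In the interferon receptor and STAT chain, 5 of 13 genes rose and 8 did not pass (median 0.15). Stat2, a subunit of the factor that type I interferon activates, stood at 96.1, 67.4 and 81 CPM with irinotecan, against 37.3, 39.4 and 40.6 CPM in DMSO (log2 fold change 1.06 ± 0.11 SE, adjusted p = 4.2e-05 by edgeR). It had irinotecan replicate 1 as the highest and irinotecan replicate 2 as the lowest of its group, the order seen in Parp9, Dtx3l, Parp12 and Parp14. Parp4, Kpna1 and Nampt, which did not pass, had the same order. The share of all genes with this order was not counted. Genes that also rose, named after their values were seen, included Irf9 by 0.26, Irf1 by 0.46 and Socs1 by 0.46. The receptor genes Ifnar1, Ifnar2, Ifngr1 and Ifngr2 and the kinase genes Jak1, Jak2 and Tyk2 did not pass, with log2 fold changes of -0.14 to 0.17.

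**Figure D5:**
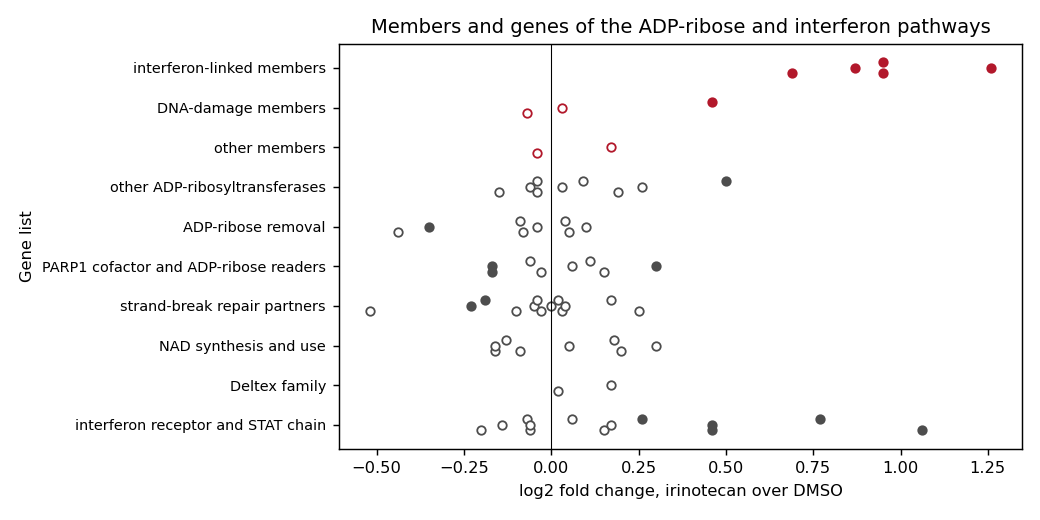
Log2 fold change of irinotecan over DMSO (horizontal axis) for the members by class (red) and for the genes of each pathway list (grey), 1 point per gene, spread vertically only to keep points apart. Xrcc1 is among both the readers and cofactors and the repair partners, with a point in each list. Filled points passed the threshold of 0.05 on the adjusted p. The interferon-linked members lie at 0.69 and above, as does Stat2 at 1.06 in the interferon receptor and STAT chain.

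Genes with the most similar profile were sought for each interferon-linked member, among 10543 other protein-coding genes. The measure was the Euclidean distance between log2 CPM deviations from the DMSO mean over the 6 libraries. These deviations were not centred within groups, so genes with nearly equal log2 fold changes lie close, such as Parp10 at 0.69 and Mybl1 at 0.70. Shared regulation was not tested. Dtx3l was at rank 2 for Parp9 (distance 0.16), after Tbc1d30 (0.08) and before Mxd4 (0.18). Parp9 was at rank 4 for Dtx3l (0.16), after Xaf1 (0.14), Rtp4 (0.15) and Trim30a (0.16). For Parp12 the nearest were H2-T22 (0.10), Tbc1d30 (0.16) and Rtp4 (0.17), with Dtx3l at rank 4 and Parp9 at rank 6. Parp9, Dtx3l and Parp12 were among each other's 6 nearest genes. Parp10 was nearest to Mybl1 (0.08), Ephb3 (0.10) and Vwa5a (0.10), and had the other 4 members at ranks from 125 to 3132. Parp14 was nearest to Dcxr (0.22), Cmpk2 (0.28) and Rom1 (0.29), with Dtx3l at rank 51 as the closest member. Tbc1d30 stood at only 3.3 CPM with irinotecan and 1.67 CPM in DMSO, and Rom1 at 1.71 CPM with irinotecan and 0.615 CPM in DMSO, and the call of Rom1 was lost without irinotecan replicate 1 (adjusted p = 0.057).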

How the data were processed

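RNA-seq covered 6 libraries of CT26 cells, grouped by their titles. The raw counts, whole numbers, and the FPKM values were deposited by the authors, per the file headers. The deposited table also holds the authors' log2 fold change, p-value and adjusted p-value; its log2 fold change correlated at -1.00 with irinotecan over DMSO, so directions come from the counts. The submitters' processing notes name the build GRCm39 and, with no role given, edgeR 3.24.3, DESeq2 1.22.1, featureCounts 1.6.2, HISAT2 2.1.0, StringTie 1.3.4d and fastp 0.19.3. The lowest count in the table was 1, and markers without a row cannot be measured.

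The test was edgeR 4.0.16 in R 4.3.3 (filterByExpr, TMM, robust glmQLFit and glmQLFTest) over 11599 genes. The biological coefficient of variation was 5.57%, a spread among these libraries that may be technical. Having 3 libraries per group limits the precision. Adjusted p is Benjamini-Hochberg over all genes tested, with a threshold of 0.05. SE is the log2 fold change over the square root of the F statistic, intervals are 95%, and log2 CPM has a prior count of 2. Alternatives were DESeq2 1.42.0, limma-voom 3.58.1, other scalings, no filter, a replicate block and leaving out each library. Between replicates of a group, the chi-square of the counts was 4.24 to 6.45 times its degrees of freedom, above the counting noise that a library read again would show; separate libraries of 1 culture could also exceed it. The members, lists and classes were chosen with earlier results of these data known. Named were all members, up to 2 higher and 2 lower genes of each list by p (the 2 with the highest CPM where none passed), 3 listed neighbours on either side of the chromosome 16 locus and the 3 most similar genes of each interferon-linked member. Promoters are from RefSeq on GRCm38.p6 and were not joined to GRCm39 coordinates. Some genes of the lists are counted but not reported here by name.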

Additional observations from a re-analysis of the deposited data

How the results depend on the processing

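Of the 10 members, 6 rose under each of the 12 alternatives and 0 fell. Their log2 fold changes ranged from 1.10 to 1.39 in Parp14, 0.89 to 1.02 in Parp9, 0.88 to 1.04 in Dtx3l, 0.81 to 0.93 in Parp12, 0.67 to 0.72 in Parp10 and 0.41 to 0.51 in Parp3, with adjusted p up to 0.018. The difference between the classes stayed between 0.76 and 0.88. Without 1 library, the genes called numbered 1393 to 2362 in all, 804 to 1211 higher and 589 to 1151 lower, the lowest without irinotecan replicate 1, and 726 were lower without DMSO replicate 2. With the replicate block 3628 genes were called, against 2559 in the main fit. Of these, 1820 were lower and 1808 higher, against 1190 and 1369 in the main fit, and 49.8% of calls with the block were higher. Deviations from the group means correlated weakly between same-numbered libraries, at 0.12, 0.04 and 0.08. Between differently numbered libraries they correlated at -0.13 to 0.03. Each library correlated best with its own number, but DMSO replicate 2 only at 0.04 against 0.03 with irinotecan replicate 3. Whether the numbers mark pairs is not known, and the main fit did not use them as pairs. Signs turned in genes that did not pass. Without 1 library, Parp1 ranged from -0.04 to 0.09, Parp6 from -0.10 to 0.04, Dtx3 from -0.02 to 0.05, Nampt from -0.01 to 0.09, Pdia5 from -0.12 to 0.14 and Wdr5b from -0.25 to 0.05, and Pdia5 was 0.01 with total counts alone. The change in the log2 ratio of Dtx3l to Parp9 was 0.00 in the main test, with no direction to turn from, and 0.00 with the replicate block. Without 1 library it ranged from -0.06 to 0.05. It was positive without irinotecan replicate 2 (0.02), DMSO replicate 2 (0.05) or DMSO replicate 3 (0.01), and negative without each of the others. The cause was not tested. Depth limits the low genes most, such as Rom1 and Tbc1d30.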
